A study of Homo sapiens with 6 samples.

Results

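Matrix glycoproteins and proteoglycans of mesenchymal type were followed as 10 genes, FN1, TNC, SPARC, POSTN, DCN, LUM, VCAN, FBN1, LOX and FAP. The genes were chosen with earlier results of these data known. Every probe set whose platform annotation gives exactly 1 symbol, and that symbol is one of these, was kept, with no choice among probe sets by measured value. This gave 37 of the 41091 probe sets with a single symbol, or 10 of 19775 genes. FN1 and DCN have 7 probe sets each, VCAN 5, POSTN 4, TNC, FBN1 and LOX 3 each, SPARC and LUM 2 each, and FAP 1. The cells were MCF-10A, an immortalized breast epithelial line that is not transformed. Affymetrix U133 Plus 2.0 arrays gave the mRNA level in 3 control samples and in 3 samples infected with an MBD2 lentivirus, which was packaged in HEK293 cells. The study asked what increased MBD2, a protein that binds methylated CpG sites, does to these cells. The submitters' labels describe the controls as non-infected and the arrays as technical replicates, whereas the methods describe an empty control virus and biological replicates. No source used here says whether the arrays came from separate cultures, so p-values measure only the spread between arrays, which may be technical. If the controls received no virus, infection and MBD2 cannot be told apart.

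Mesenchymal cells such as fibroblasts secrete most of these proteins, and cultured epithelial cells can also make several of them. Fibronectin, fibrillin and collagen fibres form a scaffold, small leucine-rich and hyaluronan-binding proteoglycans fill and regulate it, and matricellular proteins such as SPARC, tenascin-C and periostin tune how cells attach to it. Lysyl oxidase crosslinks the fibres, and fibroblast activation protein is a prolyl peptidase of the cell surface.

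For 9 of the 10 genes, arrays of 1 group lay further apart than the 2 group means did. Of the 10, 9 lay over 2-fold lower on control array 3 than on both other control arrays, and 5 of 10 lay over 2-fold higher on MBD2 array 1 than on both other MBD2 arrays. SPARC was the gene whose group means lay further apart than its arrays did within a group, with a level that was higher on all 3 MBD2 arrays than on all 3 control arrays for both of its probe sets, by 1.83 ± 0.40 and 3.35 ± 0.53 on the log2 scale (standard error, n = 3 arrays per group). Only the second of these passed the test.

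Control array 3 and MBD2 array 1 stood apart from the rest of their groups over the whole array. Control arrays 1 and 2 were over 2-fold apart at 26 of the 41091 probe sets (0.0633%) and MBD2 arrays 2 and 3 at 148 (0.36%), against 3037 and 3103 for control array 3 and 5126 and 5552 for MBD2 array 1. Spiked hybridization controls averaged 10.96 to 11.33 on the log2 scale on the control arrays and MBD2 array 1, and 9.94 and 10.01 on MBD2 arrays 2 and 3. The 3′ minus 5′ difference, a sign of RNA quality, was 1.83 on control array 3 and 1.84 on MBD2 array 1 for GAPDH, within the 1.49 to 2.52 of the 6 arrays. For ACTB it was 3.62 and 3.93, within 3.44 to 4.57. For both transcripts the 3′ end was the brighter on every array, and MBD2 arrays 2 and 3 had the lowest differences. MBD2 itself (202484_s_at) was at 8.92, 9.03 and 9.68 on control arrays 1, 2 and 3 and at 12.17, 11.72 and 12.50 on MBD2 arrays 1, 2 and 3, so the groups did not overlap and the labels held for both arrays that stood apart. The dim probe sets of MBD2, 202485_s_at, 214396_s_at and 214397_at, were at 2.92 to 4.83 and differed by only -0.08, -0.03 and 0.11. The brightest probe set of each member, both probe sets of SPARC and the called genes are also given without these 2 arrays. In RNA from whole cultures, fewer cells of a type and less RNA per cell cannot be told apart.

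The 250 bases upstream of the annotated start are shown for 3 genes, FN1 and POSTN because they lay lowest on control array 3 relative to the other controls and SPARC because it had the only called probe set. The sequences are from RefSeq, build GRCh38.p14, on the minus strand, and each CpG, the site that MBD2 reads when methylated, is in capitals. The windows are chr2:215436069-215436318 for FN1, chr13:37598769-37599018 for POSTN and chr5:151686916-151687165 for SPARC.
FN1: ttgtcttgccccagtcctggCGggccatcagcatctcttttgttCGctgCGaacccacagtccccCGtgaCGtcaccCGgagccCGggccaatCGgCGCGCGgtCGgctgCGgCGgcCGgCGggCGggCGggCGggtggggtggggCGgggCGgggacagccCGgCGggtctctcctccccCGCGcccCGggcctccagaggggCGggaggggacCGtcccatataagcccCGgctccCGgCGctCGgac
POSTN: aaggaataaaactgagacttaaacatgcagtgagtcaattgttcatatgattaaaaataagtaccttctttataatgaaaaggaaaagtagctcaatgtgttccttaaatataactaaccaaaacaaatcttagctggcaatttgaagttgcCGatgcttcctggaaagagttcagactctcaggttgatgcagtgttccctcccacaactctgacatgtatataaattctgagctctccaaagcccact
SPARC: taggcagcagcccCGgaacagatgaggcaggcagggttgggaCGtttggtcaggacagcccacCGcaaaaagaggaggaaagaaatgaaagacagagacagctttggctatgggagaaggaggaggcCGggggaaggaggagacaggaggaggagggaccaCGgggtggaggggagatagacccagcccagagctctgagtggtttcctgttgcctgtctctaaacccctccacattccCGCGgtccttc

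These windows differ widely in CpG content. FN1 holds 32 CpG sites, at the 91.2 percentile of 35116 such windows, SPARC 7 at the 42.4 percentile and POSTN 1 at the 10.4 percentile, where the median window holds 11. The other windows in the table hold 25 for FBN1, 13 for LOX and 12 each for VCAN and TNC. The letters TATAAA, on either strand, occur in POSTN and in no other of the 7 windows, against 10.7% of all windows, and TGANTCA, the AP-1 motif, likewise in POSTN alone, against 6.57%. GGGCGG, the GC box, occurs in 4 of 7 (42.6% of all windows), CCAAT in 2 (32.0%) and CACCTG, an E-box read by SNAI and ZEB factors, in 0 (17.5%). A match of letters is a description of the window only. FN1 and POSTN, the 2 genes furthest down on control array 3, thus lie at opposite ends of the range of CpG content. Methylation was not analysed here, and DCN, LUM and FAP are named only.

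SPARC, a secreted matricellular glycoprotein that binds collagen and calcium, was the member that differed most steadily between the groups. On probe set 212667_at it was at 6.91, 6.65 and 4.98 on control arrays 1, 2 and 3 and at 9.58, 9.16 and 9.86 on MBD2 arrays 1, 2 and 3. The 3 MBD2 values lay close together and above every control value, and control array 3 was the lowest. The group means of 6.18 ± 1.05 for control and 9.53 ± 0.35 for MBD2 (SD, n = 3 each) gave a difference of 3.35 (standard error 0.53, limma adjusted p = 0.0458). On 200665_s_at it was at 10.27, 10.25 and 8.87 on the control arrays and 11.81, 11.39 and 11.68 on the MBD2 arrays, again without overlap. The difference there was 1.83 (standard error 0.40, limma adjusted p = 0.0975), which did not pass. Without control array 3 and MBD2 array 1 the differences were 2.73 and 1.28. The adjusted p of 212667_at is above 0.05 without control array 1, control array 2, MBD2 array 2 or MBD2 array 3, with values from 0.132 to 0.206.

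Of the 37 member probe sets, 1 was called higher in MBD2 and 0 lower, where 0.898% of all probe sets were called higher and 0.978% lower. A call needed an adjusted p under 0.05 over all probe sets and at least 1.5-fold. At an unadjusted p under 0.05 there were 3 higher and 0 lower, where 8.49% of all probe sets were higher and 8.05% lower, so the 3 of 37 are close to that background. Read from the brightest probe set of each gene, 0 of the 10 genes were called in either direction, where 1.04% of all genes were called higher and 1.28% lower. The groups did not overlap at 4 member probe sets with MBD2 higher, 2 of SPARC, 1 of FBN1 and 1 of TNC, and at 0 with MBD2 lower, where 10.4% of all probe sets separated upward and 12.3% downward. These 4 of 37 are close to that background. On average 34 of the 37 were higher in MBD2 and 3 lower, with a median difference of 0.95 against 0.00 over all probe sets, but the 95% interval included 0 for 34 of them. By the fold rule of the study's methods, in which every MBD2 array must pass 1.5 times or fall under 0.5 times the control mean, 11 member probe sets passed upward and 0 downward, where 2.99% and 1.4% of all probe sets did. The 11 belong to FN1, FBN1, POSTN and SPARC only, and their control mean includes the low control array 3. POSTN 210809_s_at passed with MBD2 array 2 at 11.33, below control arrays 1 and 2 at 12.18 and 12.28.

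**Figure D1:**
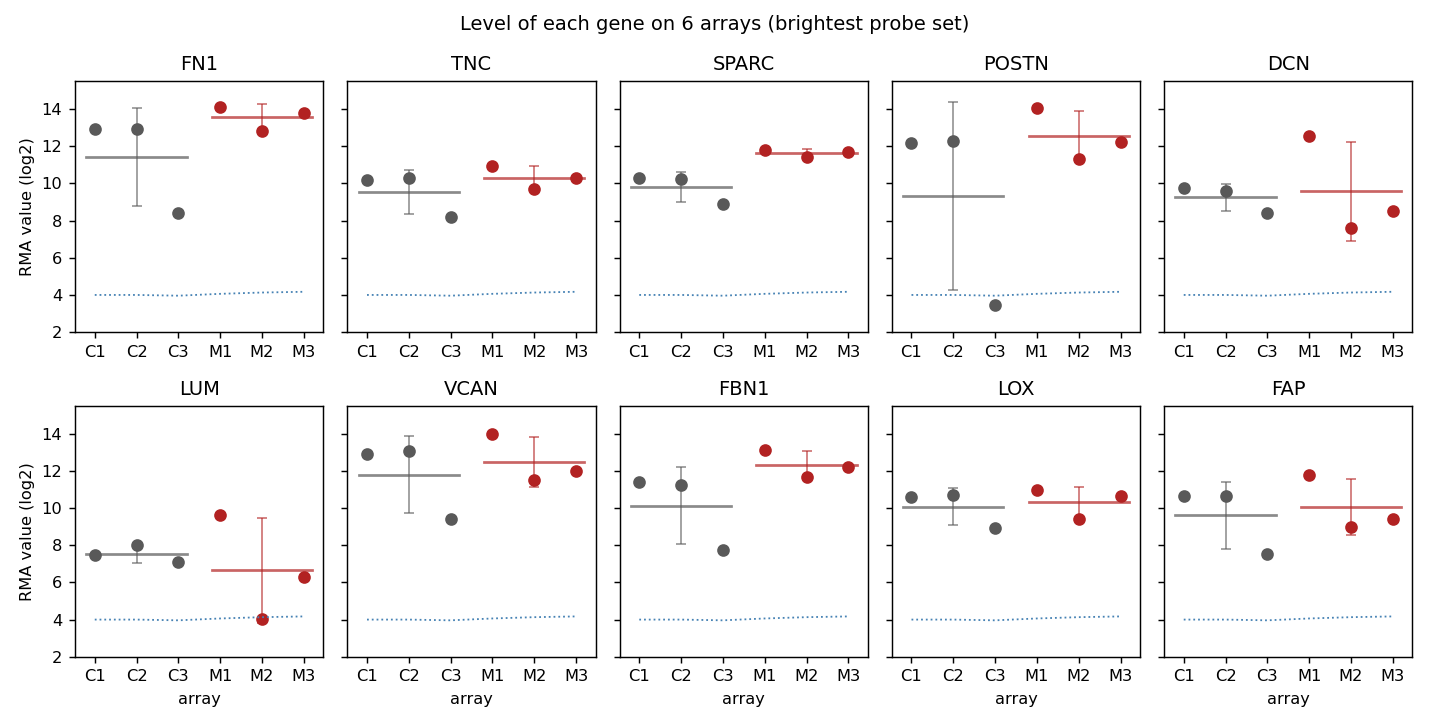
RMA level (log2, vertical axis) of each gene on its brightest probe set over the 6 arrays (horizontal axis, C for control and M for MBD2), with the group mean as a horizontal line, its SD (n = 3) as a vertical bar and the near-background limit of each array dotted. Control array 3 is the lowest of all arrays for every gene but DCN and LUM, and MBD2 array 1 is the highest for all 10 genes.

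FN1, fibronectin, the adhesive glycoprotein that integrins bind, carried the same pattern on its 4 bright probe sets. On 210495_x_at it was at 12.94, 12.93 and 8.40 on control arrays 1, 2 and 3 and at 14.13, 12.82 and 13.75 on the MBD2 arrays. Control array 3 minus the mean of the other controls was -4.54 on the log2 scale, a 23.3-fold lower level, and MBD2 array 2 lay below control arrays 1 and 2, so the groups overlapped. The difference of the means was 2.14 (standard error 1.29, limma adjusted p = 0.468). Over the 4 bright probe sets control array 3 was at 8.13 to 8.39 while the other 5 arrays were at 12.74 to 14.30, so these probe sets, some of which share sequence, moved together. The other 3 probe sets of FN1 stood out on MBD2 array 1, by 2.10 to 4.71 over the other MBD2 arrays. They were also low on control array 3, by -2.10 to -1.30 relative to the other controls. On 1558199_at the control arrays were at 5.23, 5.33 and 3.65 and the MBD2 arrays at 9.28, 4.03 and 5.12. Here a single MBD2 array stood far above the 5 others, and array 3 of the controls and array 2 of the MBD2 group were near background, which is within 0.5 log2 units of the highest control for a transcript that was not added. On 214702_at that array was at 8.02 and the others at 3.60 to 5.94.

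TNC, tenascin-C, a large glycoprotein that loosens adhesion to fibronectin, varied less. On 201645_at it was at 10.19, 10.28 and 8.18 on the control arrays and 10.92, 9.69 and 10.30 on the MBD2 arrays. The groups overlapped, and the difference of 0.76 (limma adjusted p = 0.613) was 0.07 without control array 3. On the dim probe set 237169_at the controls were at 4.94, 4.63 and 4.42 and the MBD2 arrays at 5.05, 5.34 and 5.81. These groups separated, with MBD2 array 1 the lowest of its group and not the highest, and the difference of 0.74 had a limma adjusted p of 0.206. Without control array 3 and MBD2 array 1 it was 0.80. On 216005_at the values ran from 4.05 to 5.01 with no order by group.

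POSTN, periostin, a matricellular protein that links fibronectin, tenascin-C and collagen, had the widest range of the 10 genes. On 210809_s_at it was at 12.18, 12.28 and 3.48 on control arrays 1, 2 and 3 and at 14.03, 11.33 and 12.20 on the MBD2 arrays. Control array 3 was near background, 8.75 log2 units below the mean of the other controls, and background limits how far it could fall. Its range over the 6 arrays was 10.55, and its spread within the groups (residual SD 3.70) ranked 1 of 41091 probe sets. The difference of the means, 3.21 (standard error 2.48, limma adjusted p = 0.578), was 0.29 without control array 3. A second bright probe set, 1555778_a_at, was at 9.04, 9.06 and 3.68 and at 12.12, 7.998 and 8.98. Both probe sets put control array 3 at the bottom and MBD2 array 1 at the top. The dim probe set 214981_at, at 2.99 to 4.16 on 5 arrays, reached 7.24 on MBD2 array 1 only. On 1555777_at the values ran from 3.28 to 4.38 and 5 of the 6 were near background.

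**Figure D2:**
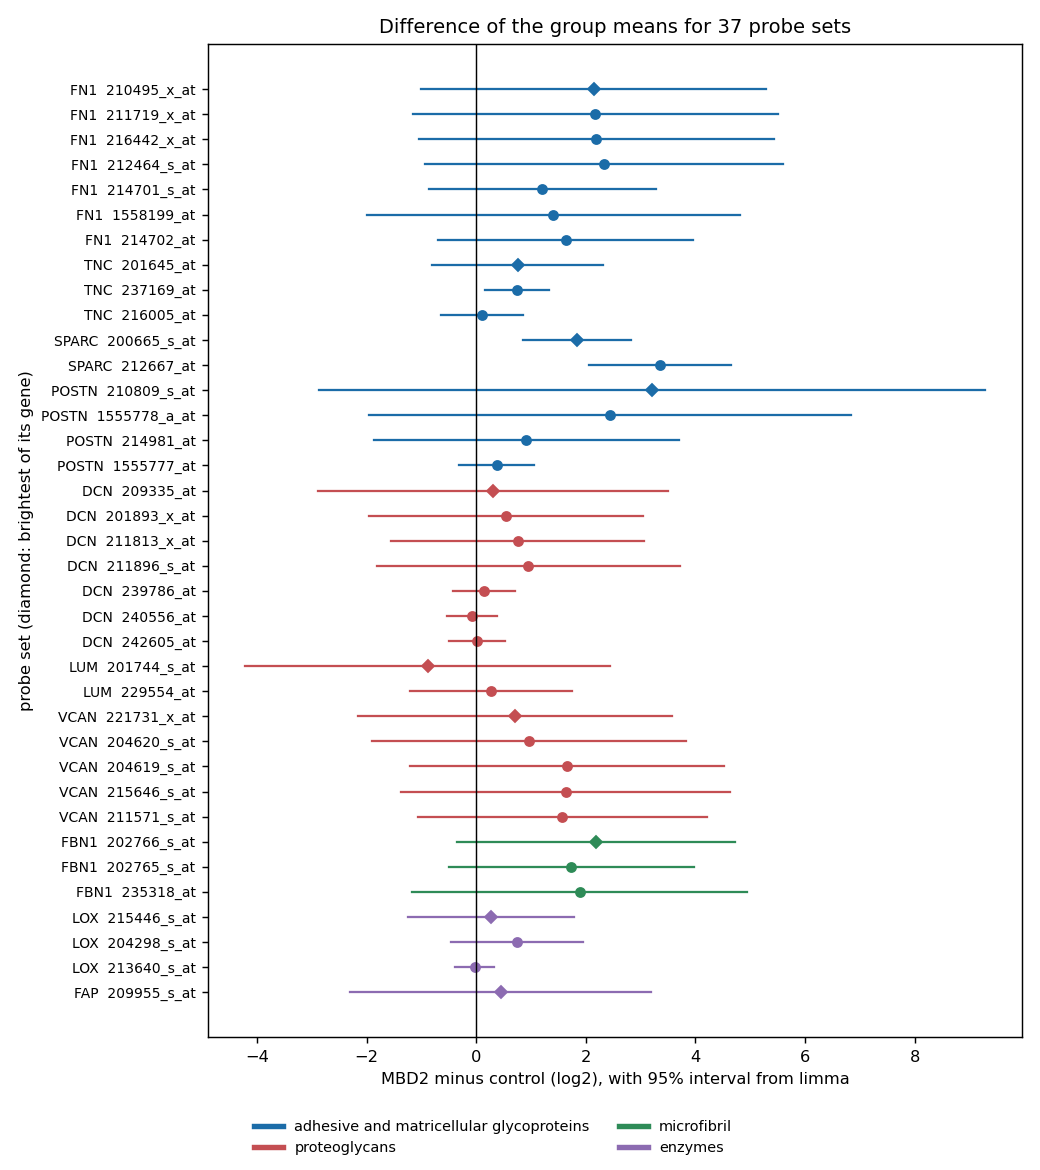
MBD2 minus control (log2, horizontal axis) with its 95% interval from limma for each of the 37 probe sets (vertical axis), coloured by the role of the gene, with diamonds for the brightest probe set of a gene. The intervals of both SPARC probe sets and of TNC 237169_at lie above 0, and the other 34 include 0.

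DCN and LUM are small leucine-rich proteoglycans that bind collagen fibrils and set their spacing, and they are neighbours on chromosome 12. Of the 10 genes they had the largest MBD2 array 1 departures and the smallest control array 3 ones. The latter were -1.24 for DCN, which is over 2-fold, and -0.67 for LUM, which is not. DCN, decorin, on 209335_at was at 9.74, 9.60 and 8.43 on the control arrays and at 12.57, 7.59 and 8.54 on the MBD2 arrays. MBD2 array 1 was the highest of all arrays and MBD2 array 2 the lowest, so the controls lay between them. The MBD2 array 1 excess over the other MBD2 arrays was 4.51, a 22.7-fold difference, and the difference of the group means was 0.31 (standard error 1.30, limma adjusted p = 0.935). The 4 bright probe sets of DCN were at 11.10 to 12.57 on MBD2 array 1, 7.08 to 7.90 on MBD2 array 2 and 8.13 to 8.95 on MBD2 array 3. All 4 therefore gave the same order of the MBD2 arrays. The 3 dim ones stayed between 3.13 and 5.40.

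LUM, lumican, was the only gene whose brightest probe set was lower on average in MBD2. On 201744_s_at it was at 7.48, 8.03 and 7.08 on the control arrays and at 9.63, 4.03 and 6.27 on the MBD2 arrays. The MBD2 arrays straddled all 3 controls, with MBD2 array 2 near background, and the difference was -0.89 (standard error 1.36, limma adjusted p = 0.798). MBD2 array 1 exceeded the mean of the other MBD2 arrays by 4.48. MBD2 array 3 also exceeded array 2 by 2.24, and LUM and 5 further member probe sets made 6 of 37 over 2-fold apart between these arrays, where 0.36% of all probe sets were. The dim 229554_at reached 5.64 on MBD2 array 1 and was at 3.30 to 4.15 on the others. Without MBD2 array 1 and control array 3 the differences were -1.61 for DCN and -2.61 for LUM.

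VCAN, versican, the large proteoglycan that binds hyaluronan, showed both departures on all 5 of its probe sets. On 221731_x_at it was at 12.89, 13.06 and 9.39 on the control arrays and at 13.99, 11.48 and 11.98 on the MBD2 arrays. MBD2 arrays 2 and 3 lay below control arrays 1 and 2, and the difference of 0.70 (standard error 1.17, limma adjusted p = 0.817) was -1.24 without the arrays that stood apart. Over the 5 probe sets control array 3 was 2.96 to 3.59 below the other controls, and MBD2 array 1 was 2.26 to 2.84 above the other MBD2 arrays.

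FBN1, fibrillin-1, the core of the microfibrils that hold elastic fibres and latent TGF-beta, had separate groups on its brightest probe set. On 202766_s_at it was at 11.38, 11.25 and 7.76 on the control arrays and at 13.10, 11.65 and 12.21 on the MBD2 arrays. Every MBD2 array lay above every control array, with a gap of 0.27 between them. The difference was 2.19 (standard error 1.03, limma adjusted p = 0.362), and 0.62 without control array 3 and MBD2 array 1. The other probe sets, 202765_s_at and 235318_at, had differences of 1.74 and 1.89 with overlapping groups, and on 235318_at control array 3 was at 3.75, near background.

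Of the enzymes, LOX varied less than FAP. LOX, lysyl oxidase, on 215446_s_at was at 10.59, 10.71 and 8.91 on the control arrays and at 10.97, 9.43 and 10.62 on the MBD2 arrays. The groups overlapped, with a difference of 0.27 (standard error 0.62, limma adjusted p = 0.869). On 204298_s_at it was at 6.86, 6.89 and 5.31 and at 7.06, 6.66 and 7.60, and 213640_s_at stayed between 4.005 and 4.46. FAP, fibroblast activation protein, has the single probe set 209955_s_at, at 10.66, 10.64 and 7.50 on the control arrays and at 11.77, 8.95 and 9.42 on the MBD2 arrays. Control array 3 was 8.85-fold below the other controls and MBD2 array 1 was 5.99-fold above the other MBD2 arrays. The difference of the means was 0.44 (standard error 1.12, limma adjusted p = 0.884), and -1.46 without these arrays.

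The 10 genes thus fell along 2 departures of unequal weight. Control array 3 minus the mean of the other controls was -8.75 for POSTN, -4.54 for FN1, -3.58 for VCAN, -3.55 for FBN1, -3.15 for FAP, -2.05 for TNC, -1.74 for LOX, -1.39 for SPARC, -1.24 for DCN and -0.67 for LUM. MBD2 array 1 minus the mean of the other MBD2 arrays was 4.51 for DCN, 4.48 for LUM, 2.58 for FAP, 2.27 for POSTN, 2.26 for VCAN, 1.17 for FBN1, 0.95 for LOX, 0.92 for TNC, 0.84 for FN1 and 0.27 for SPARC. The small leucine-rich proteoglycans thus came first in one order and last in the other, while POSTN, VCAN and FAP were far out in both. Over probe sets, 24 of 37 (64.9%) were over 2-fold lower on control array 3 than on both other controls, where 3.46% of all probe sets were, and 20 (54.1%) were over 2-fold higher on MBD2 array 1, where 4.6% were. Both held for 14, where 491 of all 41091 probe sets had both. Among genes the shares over all 19775 were 3.81% and 4.11%. The members were chosen with earlier results of these data known, so these shares describe the list and do not test it. Control array 3 was the lowest of the 6 arrays at 26 member probe sets and MBD2 array 1 the highest at 32, against 16.1% and 15.8% of all probe sets. The median residual SD was 1.54 over the members and 0.20 over all probe sets, or 0.37 over those with a mean from 8 to 15, and 24 members were in the top 1% of all probe sets. Control arrays 1 and 2 differed by at most 0.60 at any member probe set.

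**Figure D3:**
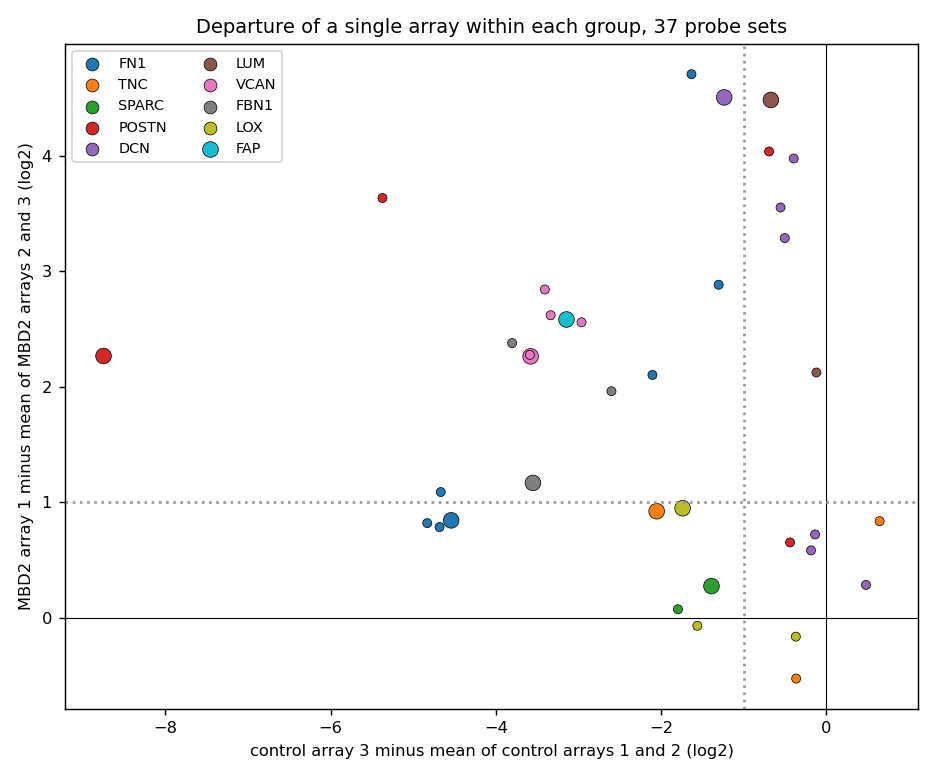
Control array 3 minus the mean of control arrays 1 and 2 (log2, horizontal axis) against MBD2 array 1 minus the mean of MBD2 arrays 2 and 3 (log2, vertical axis) for the 37 probe sets, coloured by gene, with a large point for the brightest probe set and dotted lines at 2-fold. POSTN lies far left at -8.75, DCN and LUM lie at the top at 4.51 and 4.48, and SPARC lies close to 0 on the vertical axis.

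The direction of most members rested on the 2 arrays that stood apart. With all 6 arrays 3 of 37 probe sets were lower in MBD2, without control array 3 there were 8, without MBD2 array 1 15, and without both 24, when the median difference was -0.24. Leaving both out, the differences of the brightest probe sets were 0.35 for FN1, -0.24 for TNC, 1.28 for SPARC, -0.46 for POSTN, -1.61 for DCN, -2.61 for LUM, -1.24 for VCAN, 0.62 for FBN1, -0.62 for LOX and -1.46 for FAP. FN1, SPARC and FBN1 thus kept a higher MBD2 mean and LUM a lower one, and the other 6 turned. These values rest on 2 near-identical arrays per group, which understate the spread, so no p is read from them here. They also set control arrays 1 and 2, with hybridization controls at 11.16 and 11.33, against MBD2 arrays 2 and 3, at 9.94 and 10.01. Group and hybridization level therefore cannot be told apart without both arrays. SPARC 212667_at stayed between 2.73 and 3.71 in these fits and with each array left out.

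**Figure D4:**
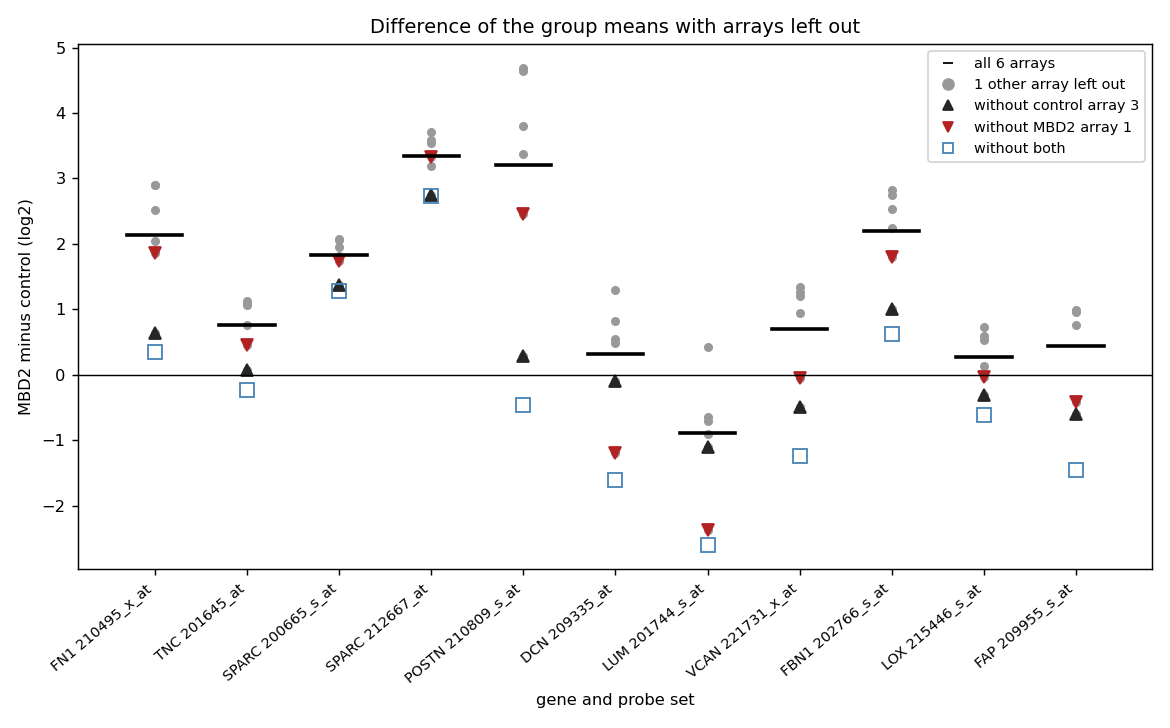
MBD2 minus control (log2, vertical axis) for the brightest probe set of each gene and the second one of SPARC (horizontal axis), with all 6 arrays (bar), with each array left out in turn (circles, and triangles for control array 3 and MBD2 array 1) and without both of these (squares). SPARC stays above 0 throughout, and the square of DCN, VCAN and FAP lies below 0 while the bar lies above it.

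The wider matrix was read from 126 measured genes of 129 listed around the members, each on its brightest probe set. None was called higher and 1 was called lower, where 1.04% and 1.28% of all genes were, and at an unadjusted p under 0.05 limma gave 10 higher and 8 lower, where 8.83% and 9.79% of all genes were, so neither count is above that background. MFAP5, a microfibril-associated glycoprotein that binds fibrillins, was the one called. It was at 12.47, 12.28 and 11.65 on the control arrays and at 10.28, 9.74 and 9.66 on the MBD2 arrays, a separation of the groups with a difference of -2.24 (standard error 0.27, limma adjusted p = 0.0257). The difference was -2.68 without control array 3 and MBD2 array 1. The adjusted p was 0.106 to 0.14 without control array 1, control array 2, MBD2 array 2 or MBD2 array 3, so the call rested on each of these. The mean difference of FBN1 had the opposite sign and did not pass. CCN2, a matricellular growth factor-binding protein, was higher by 2.13 (limma adjusted p = 0.0639), which did not pass.

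The control array 3 departure extended to 29 of these 126 genes (23%), and 1 gene lay above instead, where 3.81% of all genes lay below. The MBD2 array 1 departure held for 13 (10.3%), where 4.11% of all genes had it, and both for 8, where 191 of all 19775 genes had both. These lists too were chosen with earlier results of these data known, so the shares describe them only. By list, the 29 genes low on control array 3 were 7 of 23 matricellular genes, 6 of 20 for glycosaminoglycan chain synthesis, 4 of 18 for microfibrils and elastic fibres, 4 of 16 proteases, 4 of 12 cell surface heparan sulfate proteoglycans, 2 of 6 for hyaluronan synthesis and breakdown, 1 of 4 lysyl oxidase-like enzymes and 1 of 8 receptors. The following examples were chosen after their values were seen. THBS1, thrombospondin-1, was at 10.90, 10.87 and 6.11 on the control arrays and at 12.33, 11.66 and 11.91 on the MBD2 arrays. Its control array 3 was far below the other arrays, much as for FN1, but its groups did not overlap. SDC2, a syndecan, was at 9.79, 9.46 and 5.92 and at 11.25, 9.03 and 9.99. LOXL2, a relative of LOX, was at 9.45, 9.10 and 6.26 and at 11.02, 10.08 and 10.48. All 3 genes put control array 3 last. ADAMTS5, a protease of versican and other large proteoglycans, was at 7.78, 7.64 and 5.51 and at 10.92, 6.67 and 6.94, so that MBD2 array 1 exceeded the other MBD2 arrays by 17.4-fold.

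Neither departure was counted among the listed relatives of DCN, LUM and VCAN, as for most genes on the arrays. Among 11 other small leucine-rich proteoglycans and relatives, 0 had either departure, and all but ECM2 stayed between 2.96 and 7.05 with a range over the arrays of at most 0.56, 5 of them near background on all arrays. Among 8 hyaluronan-binding proteoglycans and link proteins, 0 had either departure, and CD44, the hyaluronan receptor, stayed between 11.96 and 12.44. The other 7 were dimmer, between 4.23 and 7.67. Over all genes 3.81% and 4.11% had the departures, so 0 of 11 and 0 of 8 are close to that background.

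**Figure D5:**
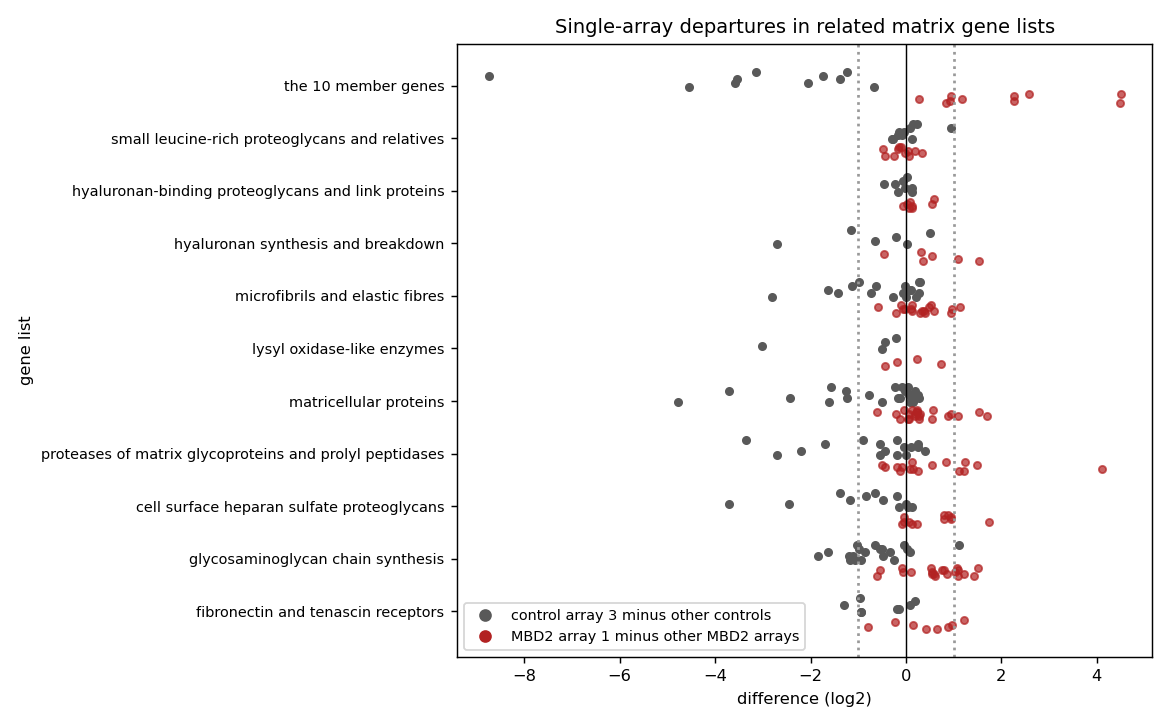
Control array 3 minus the mean of the other controls (grey) and MBD2 array 1 minus the mean of the other MBD2 arrays (red), both in log2 on the horizontal axis, for the 10 member genes and the genes of each related list (vertical axis), with dotted lines at 2-fold. The small leucine-rich relatives and the hyaluronan-binding genes cluster at 0, and the matricellular and protease lists hold genes far out on either side.

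Markers of other cell types were read beside these values. Over all genes 1.04% were called higher in MBD2 and 1.28% lower, so lists of this size would hold few or no calls. The groups separated upward at 10.4% of all probe sets and downward at 12.3%. Fibroblasts express many of the members, and among 10 fibroblast markers 0 were called, 0 were low on control array 3 and 1, COL3A1, was high on MBD2 array 1, at 8.90 against 4.84 to 5.28 on the others. The log2 of their summed level was 9.54 to 9.97 on the control arrays and 10.29 to 11.19 on the MBD2 arrays. PDGFRA, PDGFRB, THY1, TCF21, MEOX2 and PRRX1 were between 3.11 and 6.86 on all arrays, and none ranged over more than 0.46. Of the collagens in the list, COL1A1 was at 9.35, 9.07 and 8.69 on the control arrays and at 10.60, 10.61 and 9.75 on the MBD2 arrays, higher on every MBD2 array, with a difference of 1.28 (limma adjusted p = 0.108) that did not pass. COL6A3 differed by 1.22 (limma adjusted p = 0.125), also without overlap, and COL1A2 by 0.34 (limma adjusted p = 0.432) with overlapping groups. KRT5, KRT14 and SFN, markers of the basal mammary epithelium, were between 11.49 and 14.69 on all 6 arrays. LAMB3, of the same list, was at 13.07, 13.115 and 11.39 on the control arrays and at 13.64, 12.73 and 13.03 on the MBD2 arrays. Its control array 3 lay 3.26-fold below the other controls, and its difference was 0.61 (limma adjusted p = 0.62). The MBD2 minus control difference was -1.26 for KRT5, -0.56 for KRT14 and -1.61 for CDH1, E-cadherin, each with every MBD2 array below every control array, and 1.66 for KRT18, a luminal keratin, with every MBD2 array above, and none of the 4 passed (limma adjusted p from 0.158 to 0.234). EPCAM, an epithelial adhesion molecule, was at 12.96, 13.05 and 12.73 on the control arrays and lower by 3.12 in MBD2 (limma adjusted p = 0.00148), the 1 called of 7 measured epithelial markers, with a difference of -3.22 without control array 3 and MBD2 array 1. The log2 of their summed level was 16.03 to 16.40 on the control arrays and 15.77 to 15.90 on the MBD2 arrays. Of 7 markers of HEK293, the packaging line, CDH2 followed the members, at 10.98, 11.16 and 7.72 on the control arrays and 12.48 on MBD2 array 1, and the other 6 stayed between 3.17 and 5.50. The log2 of their summed level was 8.37 to 11.24 on the control arrays and 11.16 to 12.51 on the MBD2 arrays. CDH2, N-cadherin, is also made by mesenchymal cells. The 7 endothelial, 6 leukocyte and 7 smooth muscle and pericyte markers measured held 0 calls. Summed in log2, these lists ran over the control arrays from 7.78 to 7.92, 10.16 to 10.92 and 9.51 to 9.95, and over the MBD2 arrays from 7.81 to 7.84, 8.31 to 9.02 and 10.02 to 11.53. In the leukocyte list CD14 differed by -3.07 (limma adjusted p = 0.0509), and the other 5 stayed between 3.50 and 6.62. In the smooth muscle and pericyte list ACTA2 differed by 1.48 (limma adjusted p = 0.243), and the other 6 stayed between 4.05 and 6.67. RGS5, among these 6, was higher on every MBD2 array by 0.84 on average (limma adjusted p = 0.0672), which did not pass. The part of these markers in the members' values was not tested.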

How the data were processed

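Log2 values per probe set, normalized by the authors with RMA and deposited for 6 arrays (3 control, 3 MBD2), were used as given. The submitters' processing notes name RMA and affy, and versions are not given in the sources used here. Values were compared in limma 3.58.1 (R 4.3.3), by lmFit on the group alone and eBayes with 1.95 prior degrees of freedom, over the 41091 probe sets with 1 symbol, with Benjamini-Hochberg adjustment. No filter on dim probe sets was applied. Genes were read from their brightest probe set. Differences are MBD2 minus control. RMA makes the arrays share a distribution, so a shift of all mRNA would not be seen, and it compresses low values. The members and gene lists were chosen with earlier results of these data known. Named genes were all members, MBD2 and the called genes of each list, and others were chosen after their values were seen. The fit was also run on simulated arrays with independent values. That run does not cover near-identical arrays or arrays that stand apart, as found here. Precision is limited by the number of arrays. KRT6A, KRT17, TP63, HAS1, HYAL1 and ITGB6 were not analysed here. Alternatives are in the closing section.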

Additional observations from a re-analysis of the deposited data

How the results depend on the processing

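Of the 37 member probe sets, the number called higher was 1, and 0 by brightest probe set, with the probe sets of a gene averaged, with a replicate block and with near-identical arrays averaged, 3 with the hybridization level as a block (DCN 211896_s_at, POSTN 214981_at and LUM 229554_at, while SPARC 212667_at lost its call at an adjusted p of 0.113), 4 without control array 3 and MBD2 array 1, 11 by the fold rule of the methods and 0 to 2 with each array left out. The number called lower was 0, and 6 without both arrays. Related genes called higher were 0, and 1 with a mean of at least 5, 8 without both arrays, 10 by the fold rule and 0 to 1 with each array left out. Those called lower were 1, and 0 with only probe sets lacking an ending for shared sequence, with a replicate block, with the hybridization block and with arrays averaged, 27 without both arrays and 0 to 6 with each array left out. Over all probe sets, 369 were called higher, and 196 by the mean of a gene, 245 without shared-sequence endings, 1 with the replicate block, 222 with the hybridization block, 0 averaged, 6380 without both arrays, 1230 by the fold rule and 2 to 3616 with each array left out. Those called lower were 402, and 253, 246, 23, 248, 0 and 4094 in the same order up to the fit without both arrays, and 18 to 1924 with each array left out. The averaged fit has 2 values per group, and the fit without both arrays has 2 near-identical arrays per group, so its spread is understated and its counts are too large to read as calls.

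Without both arrays the log2 difference turned for TNC (-0.24), POSTN (-0.46), DCN (-1.61), VCAN (-1.24), LOX (-0.62) and FAP (-1.46), and with the hybridization block for LUM (2.10), where it compares MBD2 array 1 alone with the controls. With each array left out the range was -1.19 to 1.30 for DCN, -2.38 to 0.42 for LUM, -0.49 to 1.34 for VCAN, -0.31 to 0.73 for LOX and -0.60 to 0.99 for FAP, turning without control array 3 or MBD2 array 1 (LUM without MBD2 array 2). It was 0.63 to 2.90 for FN1, 0.07 to 1.12 for TNC, 1.37 to 2.07 for SPARC 200665_s_at, 2.75 to 3.71 for SPARC 212667_at, 0.29 to 4.69 for POSTN and 1.01 to 2.82 for FBN1. The cause was not tested.

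The replicate numbers were not taken to pair the arrays, since deviations from the group means correlated at 0.208, -0.329 and 0.285 for numbers 1, 2 and 3. With the number as a replicate block SPARC 212667_at was still at 3.35 with a limma adjusted p of 0.131, MFAP5 at -2.24 with 0.0596 (0.0712 with the hybridization block) and MBD2 at 2.92 with 0.0511. MFAP5 was -1.70 by the mean of its probe sets (adjusted p = 0.126). The adjusted p of MFAP5 ran from 0.00645 to 0.14 with each array left out, and that of MBD2 from 0.00745 to 0.107. With near-identical arrays averaged, limma adjusted p was 0.50 for SPARC 212667_at and for MFAP5 and 0.29 for EPCAM, the only one of these fits in which EPCAM lost its call. Centring on housekeeping genes changed the sign of 1 member probe set.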
